A study of Mus musculus with 8 samples.

Results

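The 9 genes described here encode CD44, the main cell surface receptor for hyaluronan, and proteins that make, cut or bind hyaluronan. They are Cd44, the synthases Has1, Has2 and Has3, the genes of hyaluronan breakdown Hyal1, Hyal2 and 9930013L23Rik (an older symbol of Cemip), and the hyaluronan-binding matrix genes Vcan and Tnfaip6. Each was found by its symbol among the 23420 gene symbols of the count tables, and all 9 passed the filter on low counts. Cd44 was chosen by its difference between the genotypes in these libraries, and the other 8 members were grouped around it by function with results of the same comparison known. Differences between genotypes in the members are therefore given as descriptions, without a p-value.

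Polyadenylated RNA was sequenced from mouse uterine stromal cells labelled day 3, with 4 libraries carrying the label Erbb3f/f and 4 the label Erbb3d/d. In common mouse notation f marks a loxP-flanked allele and d the allele after Cre deletion. The labels give no Cre line, no strain, no animal age and no event from which the day is counted, and do not say whether replicates are separate animals, so the spread between them may in part be technical. Genotype names below are those of the labels, because Erbb3 itself, counted over the whole gene, had 13.9 ± 4.55 CPM under the label Erbb3d/d and 9.63 ± 2.24 CPM under Erbb3f/f (± SD, n = 4), a count that includes reads from exons outside any deleted part. CPM, the unit used throughout, is the read count scaled to the size of the library's reads in genes.

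Hyaluronan is a long unbranched sugar polymer that is extruded from the plasma membrane as it is made. HAS enzymes join its sugars, hyaluronidases and CEMIP shorten it, and versican and TNFAIP6 (TSG-6) bind it into a pericellular matrix that cells grip through CD44. In the uterus this matrix holds water, and its amount and chain length are known to change with hormonal state and around implantation. CD44 has also been found in complexes with ERBB receptors.

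Depth ranged from 8578575 to 12854367 reads in genes per library. All 13 stromal markers examined were detected in each library, with a summed level of 13850 to 17250 CPM in the libraries labelled Erbb3f/f and 11710 to 15890 CPM in those labelled Erbb3d/d. Of these 13, 9 had a log2 fold change below 0 and 4 above it. Pdgfra (-0.56, SE 0.13) and Vim (-0.47, SE 0.13) were lower without overlap, as were 2.48% of all genes tested. Transcripts of other cells were present too. The 13 epithelial markers summed to 960.5 to 1576 CPM in Erbb3f/f and 1515 to 2453 CPM in Erbb3d/d, with 11 of 13 at a log2 fold change above 0. The 10 smooth muscle markers summed to 1276 to 2350 CPM and 1994 to 4649 CPM, with 9 of 10 above 0. The epithelial markers Krt19, Cldn4 and Cldn7 and the smooth muscle markers Myh11 and Cnn1 were higher without overlap, as were 2.57% of all genes tested. Endothelial (10 genes), immune (12 genes) and mesothelial (4 genes) sums overlapped widely between the genotypes, with log2 fold changes above 0 in 9, 6 and 0 genes. No marker of any list was at 0 in a library. Fewer cells of a type and less RNA per cell cannot be told apart in such bulk samples.

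The comparison of genotypes asked how the stromal transcriptome differs where Erbb3 is targeted, and it sets the background for the members. Among 14598 genes tested, edgeR's quasi-likelihood test with Benjamini-Hochberg adjustment at 0.05 called 0 (0%). Without adjustment 1695 genes (11.6%) had p under 0.05, and DESeq2 called 270 of 15210 genes (1.78%). With the replicate number as a block, edgeR called 52 genes (0.356%), 39 higher and 13 lower in Erbb3d/d. The CPM values of both genotypes did not overlap in 362 genes lower in Erbb3d/d (2.48%) and in 375 genes higher in Erbb3d/d (2.57%). Of the 9 members, Cd44 was lower without overlap, 9930013L23Rik was higher without overlap, and the other 7 overlapped. With the block, 9930013L23Rik was among the genes called and the other 8 members were not. Whether DESeq2 called any member is not given here. Since Cd44 was picked on this contrast and the other members listed with its results known, nothing is read from these counts and calls. The median log2 fold change, Erbb3d/d over Erbb3f/f, was -0.20 over the 9 members and -0.01 over all genes tested.

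**Figure D1:**
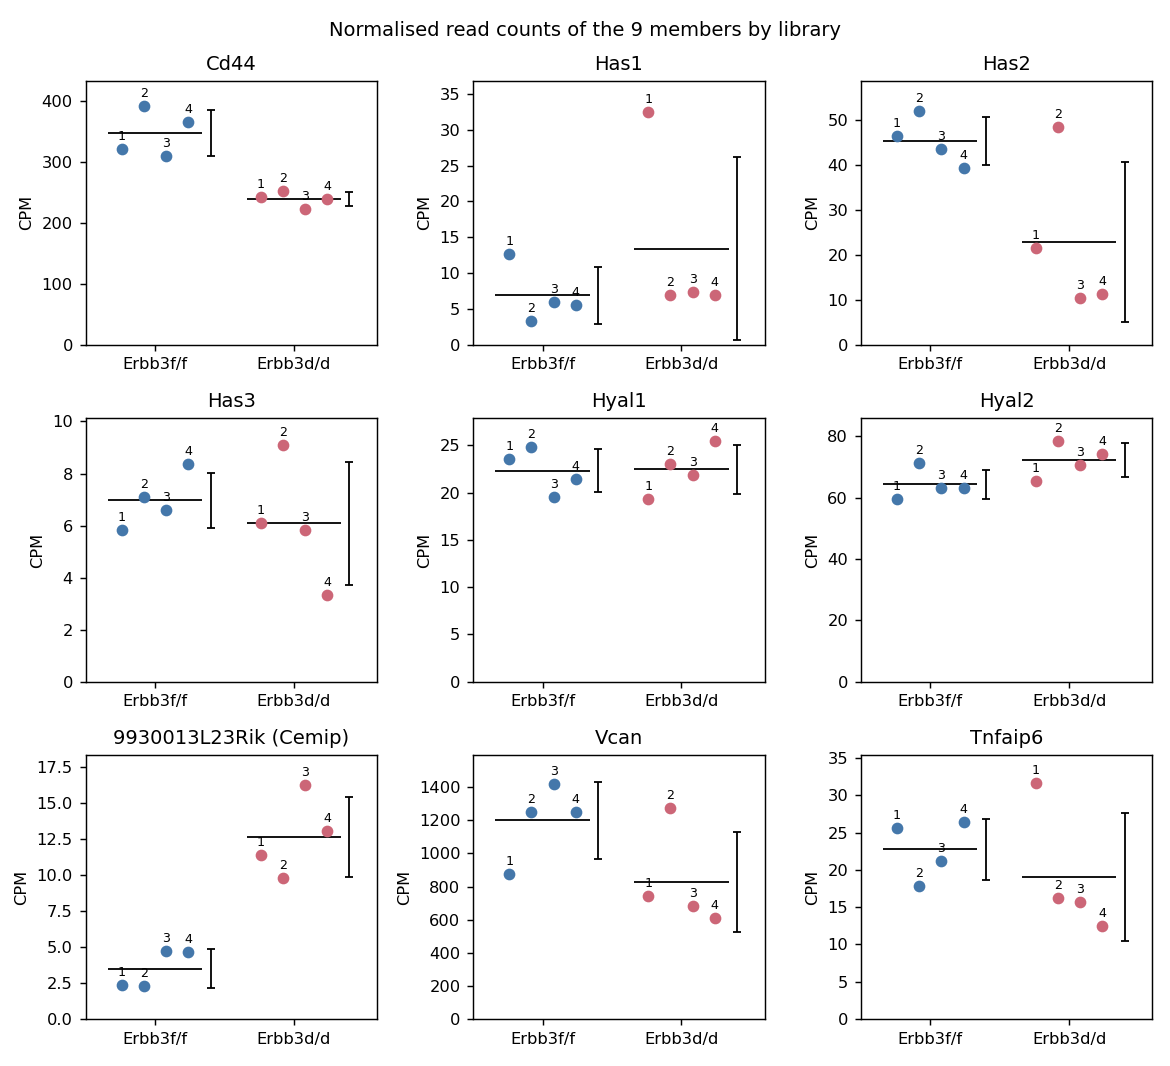
Normalised read count (CPM, y axis from 0) of each member in each library, with the replicate number above each point. Horizontal lines are means and the bars beside them SD (n = 4). The Cd44 and 9930013L23Rik points of the genotypes do not overlap, whereas Has2, Vcan and Has1 each have 1 library labelled Erbb3d/d apart from the other 3.

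The receptor gene Cd44 has 19 merged exons on the minus strand of chromosome 2, from 102811141 to 102901665 (positions here and below are GRCm38, GENCODE vM21). It had 321, 392, 310 and 365 CPM in Erbb3f/f replicates 1 to 4, from 3229 to 3950 reads per library. In Erbb3d/d replicates 1 to 4 it had 242, 251, 223 and 239 CPM, from 2156 to 2835 reads. All 4 libraries labelled Erbb3d/d lay below all 4 labelled Erbb3f/f, and they lay closer together. Means were 347 ± 38.2 CPM for Erbb3f/f and 239 ± 11.7 for Erbb3d/d (± SD, n = 4), 1.45-fold lower, with a log2 fold change of -0.54 (SE 0.10). The stromal markers Pdgfra and Vim had log2 fold changes of similar size. So did Hoxa10 (-0.545, SE 0.22) and Hoxa11 (-0.59, SE 0.26), whose genotypes overlapped. Of the 13 stromal markers, 4 were above 0, among them Dcn (0.38, SE 0.20) and Lum (0.26, SE 0.19), and Col1a1 was at -0.04 (SE 0.18). Epithelial sums were 1515, 1533, 2388 and 2453 CPM in Erbb3d/d replicates 1 to 4. The part of cell makeup in the Cd44 difference was not tested. Which of the many splice forms of Cd44 was present is not seen in gene-level counts.

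Among hyaluronan breakdown genes, 9930013L23Rik (Cemip) encodes a protein needed for a hyaluronidase-independent cutting of hyaluronan at the cell surface. Its gene spans 83932857 to 84086502 of chromosome 7 (minus strand). Erbb3f/f replicates 1 to 4 had 2.34, 2.30, 4.71 and 4.63 CPM, from 24, 22, 60 and 41 reads. Erbb3d/d replicates 1 to 4 had 11.4, 9.79, 16.2 and 13.1 CPM, from 116, 84, 206 and 149 reads. The lowest library labelled Erbb3d/d was above the highest labelled Erbb3f/f, although the counts in Erbb3f/f were small. Means were 3.49 ± 1.36 CPM for Erbb3f/f and 12.6 ± 2.75 for Erbb3d/d (± SD, n = 4), 3.60-fold higher, with a log2 fold change of 1.85 (SE 0.30). It was 2.42 (SE 0.37) when the smooth muscle marker mean was a covariate and 1.68 (SE 0.45) when the epithelial marker mean was. The level was highest in Erbb3d/d replicates 3 and 4, which also had the highest epithelial sums, and the part of epithelial RNA was not tested. With the replicate number as a block the log2 fold change was 1.89 (SE 0.23).

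The other 2 breakdown genes encode hyaluronidases and neighbour each other on chromosome 9. Hyal2, a membrane-anchored enzyme that cuts long hyaluronan into intermediate chains, lies at 107567945 to 107572779. It had 59.7, 71.2, 63.2 and 63.3 CPM in Erbb3f/f replicates 1 to 4 and 65.6, 78.7, 70.7 and 74.3 CPM in Erbb3d/d replicates 1 to 4. These ranges overlapped, with a log2 fold change of 0.17 (SE 0.10), and Hyal2 was higher in Erbb3d/d in 4 of 4 same-numbered pairs. By number, Has1 and 9930013L23Rik were also higher in 4 of 4, and Cd44 and Has2 were lower in 4 of 4. Vcan and Tnfaip6 were lower in 3 pairs and higher in 1, and Has3 and Hyal1 were higher in 2 and lower in 2. Pairing by number is uncertain, and the share of all genes at 4 of 4 was not computed. Hyal1, a lysosomal hyaluronidase whose gene spans 107576927 to 107581710, averaged 22.3 ± 2.31 CPM for Erbb3f/f and 22.45 ± 2.56 for Erbb3d/d (± SD, n = 4), with a log2 fold change of 0.01 (SE 0.14). In the annotation, 50.8% of the exonic bases of Hyal1 are also exonic in Naa80 (Nat6 in the files) on the same strand and 4.21% in Hyal3, so its count depends on how shared reads were assigned, which is not given in the sources used here.

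The sequence just before the start of Cd44 and of 9930013L23Rik is shown because these are the members whose genotypes did not overlap. Both are from RefSeq (GRCm38.p6), minus strand, 5′ to 3′, the 250 bases that end just before the annotated start. The RefSeq table matched 7 of the 9 members. Capitals mark matches, on either strand, to any of 6 short motifs. The AP-1 motif is TGANTCA and the cAMP response element (CRE) is TGACGTCA. The TATA box was searched as TATAAA, and the CCAAT box by the letters of its name. The GC box was searched as GGGCGG, while GTGGGCG served as the EGR motif, which was added after the Cd44 sequence was read. Matches to the GC box and EGR motifs can overlap.
Cd44, chr2:102901666-102901915: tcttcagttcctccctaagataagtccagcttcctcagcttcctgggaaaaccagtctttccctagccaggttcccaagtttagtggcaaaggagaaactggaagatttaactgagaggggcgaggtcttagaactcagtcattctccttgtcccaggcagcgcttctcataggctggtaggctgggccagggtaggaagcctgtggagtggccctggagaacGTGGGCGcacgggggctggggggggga
9930013L23Rik (Cemip), chr7:84086506-84086755: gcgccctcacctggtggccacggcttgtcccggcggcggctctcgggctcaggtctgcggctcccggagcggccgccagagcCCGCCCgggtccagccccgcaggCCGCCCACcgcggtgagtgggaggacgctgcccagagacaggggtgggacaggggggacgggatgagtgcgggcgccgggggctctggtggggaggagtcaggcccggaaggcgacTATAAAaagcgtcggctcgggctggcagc

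In these 250 bases, Cd44 held 1 match, to the EGR motif, starting 27 bases before the annotated start. 9930013L23Rik held a TATA box starting 29 bases before the start, 2 GC box matches on the opposite strand and an EGR match that overlaps one of them. The GC content was 56.4% before Cd44 and 75.2% before 9930013L23Rik, against a median of 52.4% over 32817 promoters. Of those promoters, 7.02% held the EGR motif, 12.4% the TATA box and 32.7% the GC box. A match describes letters and no binding was measured.

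Has2 was the main synthase transcript per length in all libraries labelled Erbb3f/f. It encodes the synthase that makes long hyaluronan chains in many connective tissues and its gene spans 56665627 to 56694539 of chromosome 15 (minus strand). It had 46.4, 51.9, 43.5 and 39.2 CPM in Erbb3f/f replicates 1 to 4. In Erbb3d/d replicates 1 to 4 it had 21.4, 48.2, 10.3 and 11.2 CPM. Replicate 2 lay inside the Erbb3f/f range, while replicates 1, 3 and 4 lay below its lowest value. Means were 45.2 ± 5.33 CPM for Erbb3f/f and 22.8 ± 17.7 for Erbb3d/d (± SD, n = 4), with a log2 fold change of -1.004 (SE 0.45). Without Erbb3d/d replicate 2 the log2 fold change was -1.66, and with the epithelial marker mean as a covariate it was -0.20 (SE 0.47). The lowest Has2 values were in the 2 libraries with the highest epithelial sums. The part of epithelial RNA in this difference was not tested. Has2 was lower in Erbb3d/d than in the same-numbered library labelled Erbb3f/f in 4 of 4 pairs, although pairing by number is uncertain. The log2 fold change of Has2 with the replicate block was -1.255 (SE 0.32). Has2as, an antisense transcript that shares 4.30% of the exonic bases of Has2, had 1.47 to 3.24 CPM in Erbb3f/f and 2.65, 2.56, 0.630 and 0.526 CPM in Erbb3d/d replicates 1 to 4. The libraries were not strand-specific, so reads of the shared bases cannot be split between them.

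Has1, a synthase with lower activity that is known to be induced by inflammatory signals, is on chromosome 17 (17843323 to 17855205). Its level was 12.65, 3.35, 5.965 and 5.53 CPM in Erbb3f/f replicates 1 to 4 and 32.5, 6.87, 7.40 and 6.92 CPM in Erbb3d/d replicates 1 to 4. Erbb3d/d replicate 1 stood far above the other 7 libraries, and replicates 2 to 4 lay inside the Erbb3f/f range. The log2 fold change was 0.96 (SE 0.61) with all libraries, 0.04 (SE 0.40) without Erbb3d/d replicate 1, and -0.40 (SE 0.68) with the smooth muscle marker mean as a covariate. Erbb3d/d replicate 1 also had the highest sum of the 13 immediate early and heat shock genes, 12340 CPM against 4399 to 8555 CPM elsewhere, and the highest smooth muscle sum, 4649 CPM. Their part in the Has1 value was not tested. Compared with the same-numbered library labelled Erbb3f/f, Has1 was higher in 4 of 4 pairs, although pairing by number is uncertain. The log2 fold change of Has1 with the replicate block was 0.77 (SE 0.24).

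Has3, which makes shorter chains, lies on chromosome 8 at 106870242 to 106884566 and shares 5.52% of its exonic bases with Chtf8 on the other strand. It had 5.84, 7.11, 6.59 and 8.36 CPM in Erbb3f/f replicates 1 to 4 and 6.09, 9.09, 5.83 and 3.33 CPM in Erbb3d/d replicates 1 to 4, a log2 fold change of -0.20 (SE 0.30). Both the highest and the lowest of these values were in libraries labelled Erbb3d/d.

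Taking the 3 synthases together per length, their summed level was 13.3 ± 1.33 CPM per kb in Erbb3f/f and 9.30 ± 5.17 CPM per kb in Erbb3d/d (SD, n = 4 each). Erbb3d/d replicates 1 and 2, at 13.2 and 14.3, lay at the Erbb3f/f values of 11.8 to 14.7, and replicates 3 and 4, at 4.99 and 4.70, lay below them. The makeup differed between libraries as well. Has2 made up 74.7% to 86.8% of the sum in Erbb3f/f. It made up 38.3%, 79.4%, 48.8% and 56.3% in Erbb3d/d replicates 1 to 4, while Has1 reached 54.5% in replicate 1. The summed level of the 3 breakdown genes was 25.7 ± 1.79 CPM per kb in Erbb3f/f and 28.9 ± 2.20 CPM per kb in Erbb3d/d (SD, n = 4 each), and Hyal2 made up 73.9% to 77.6% of it in every library. 9930013L23Rik supplied 0.663% to 1.56% of it in Erbb3f/f and 2.60% to 4.64% in Erbb3d/d. This breakdown sum and its shares depend on the level of Hyal1, which is uncertain because of the exonic bases it shares with Naa80.

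**Figure D2:**
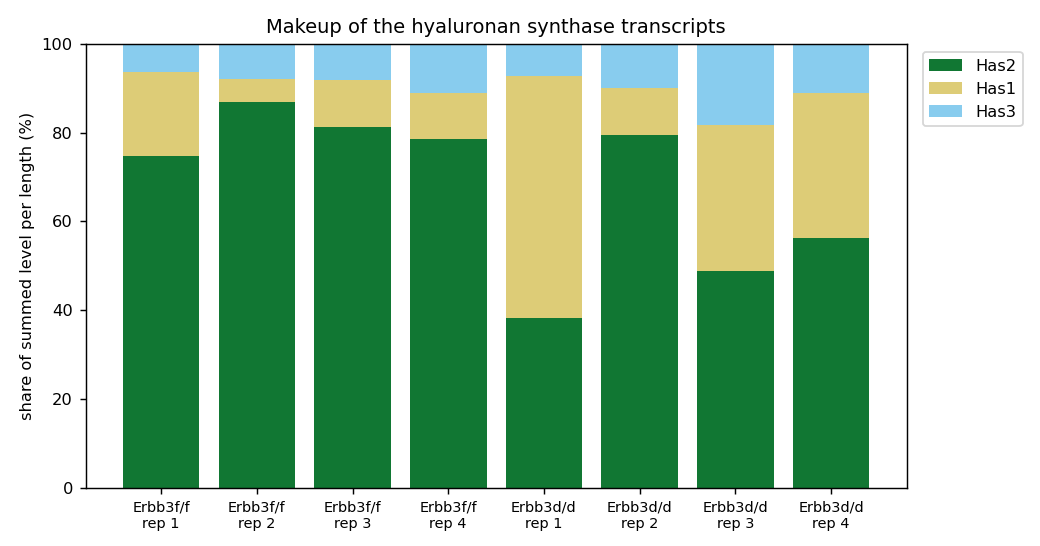
Share of Has2, Has1 and Has3 in the summed synthase level per length (y axis, %), 1 bar for each library. Has2 forms at least 74.7% in each library labelled Erbb3f/f and 38.3% to 79.4% in those labelled Erbb3d/d.

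Vcan encodes versican, a large chondroitin sulphate proteoglycan whose link domain binds hyaluronan, from chromosome 13 (89655312 to 89742509). Its level was 876, 1250, 1421 and 1251 CPM in Erbb3f/f replicates 1 to 4. In Erbb3d/d replicates 1 to 4 it had 744, 1276, 680 and 610.5 CPM. As with Has2, replicate 2 lay inside the Erbb3f/f range and the other 3 lay below it. Means were 1200 ± 230.3 CPM for Erbb3f/f and 827.5 ± 304 for Erbb3d/d (± SD, n = 4), with a log2 fold change of -0.54 (SE 0.24). It was -0.82 without Erbb3d/d replicate 2 and -0.06 (SE 0.27) with the epithelial marker mean as a covariate, and the part of epithelial RNA was not tested.

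Tnfaip6 encodes TSG-6, a secreted protein that transfers heavy chains of inter-alpha-inhibitor onto hyaluronan, from chromosome 2 (52038009 to 52056686). Its level was 25.7, 17.8, 21.2 and 26.4 CPM in Erbb3f/f replicates 1 to 4 and 31.7, 16.2, 15.7 and 12.5 CPM in Erbb3d/d replicates 1 to 4. Replicate 1 was the highest of all 8 libraries, as for Has1, and replicates 2 to 4 lay below the lowest library labelled Erbb3f/f. The log2 fold change was -0.26 (SE 0.27) with all libraries and -0.62 without Erbb3d/d replicate 1.

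Has1 and Tnfaip6 shared their highest library, which was also the highest in immediate early transcripts, so the sequence before their starts is shown. Both are from RefSeq (GRCm38.p6), 5′ to 3′ on the strand of the gene, with capitals for the same motifs. Bases inside the gene in GENCODE vM21 were left out.
Has1, chr17:17855206-17855438, minus strand: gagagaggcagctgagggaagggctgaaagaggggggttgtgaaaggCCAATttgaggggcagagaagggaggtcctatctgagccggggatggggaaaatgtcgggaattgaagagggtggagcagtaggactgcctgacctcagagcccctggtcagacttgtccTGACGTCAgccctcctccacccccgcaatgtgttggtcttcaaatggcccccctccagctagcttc
Tnfaip6, chr2:52037863-52038008, plus strand: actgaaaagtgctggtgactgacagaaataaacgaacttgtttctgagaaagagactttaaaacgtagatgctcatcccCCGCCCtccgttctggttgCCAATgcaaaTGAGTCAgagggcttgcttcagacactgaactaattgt

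Has1 held a complete CRE, the palindrome read by cAMP-responsive factors, 83 bases before the RefSeq start. Of the 32817 promoters, 1.55% held these letters. Tnfaip6 held an AP-1 match, the motif read by FOS and JUN proteins, 142 bases before its RefSeq start, and 6.75% of promoters held that motif. Both also held a CCAAT box, found in 33.8% of promoters. These matches are descriptions of the sequence only.

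**Figure D3:**
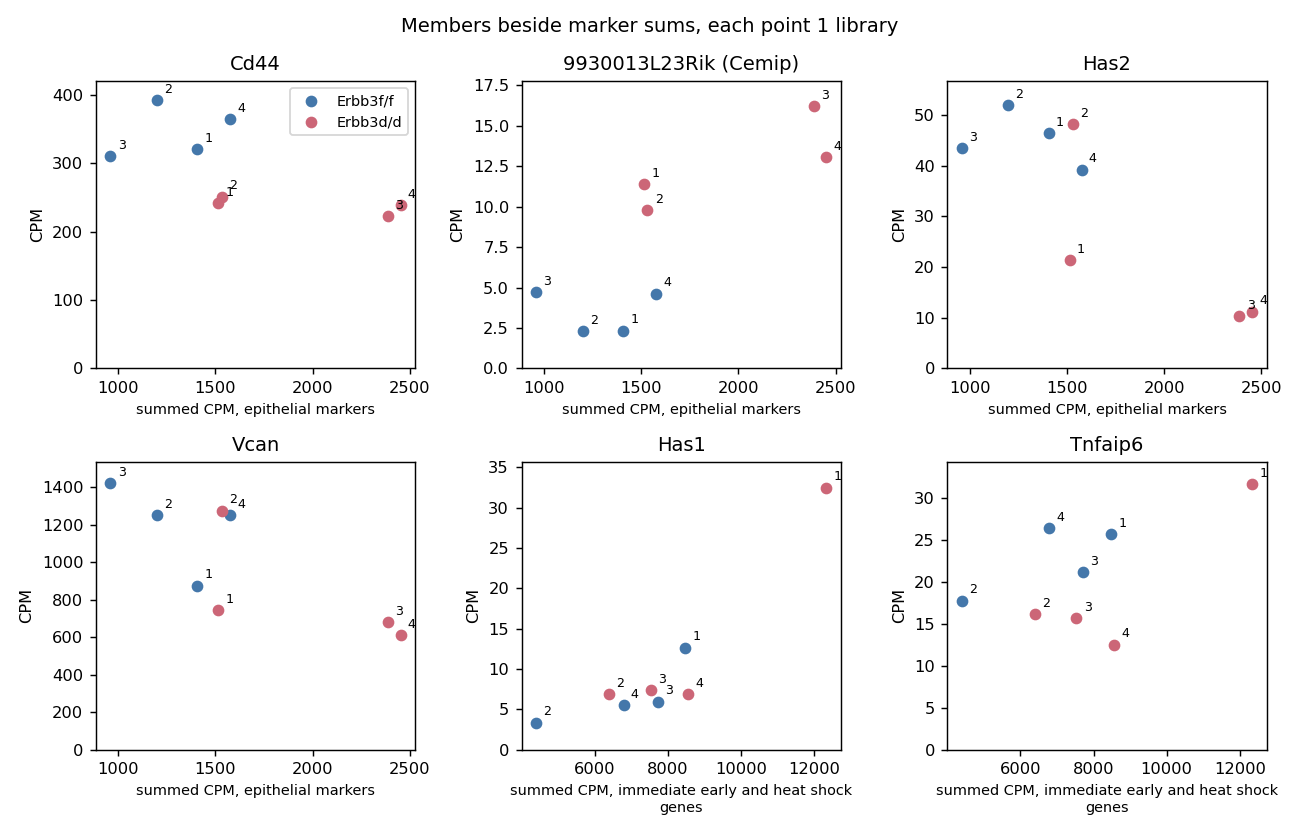
CPM of 6 members (y axes from 0) against the summed CPM of epithelial markers or of immediate early and heat shock genes in the same library (x axes), with replicate numbers. Erbb3d/d replicates 3 and 4, at 2388 and 2453 CPM of epithelial markers, hold the lowest Has2 and Vcan, and Erbb3d/d replicate 1, at 12340 CPM of immediate early and heat shock genes, holds the highest Has1 and Tnfaip6.

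The order of the members by level was compared per length of merged exon, a measure that their choice did not use. In Erbb3f/f the level was 83.0 ± 15.9 CPM per kb for Vcan, 51.2 ± 5.63 for Cd44, 19.5 ± 1.48 for Hyal2, 13.3 ± 2.37 for Tnfaip6, 10.7 ± 1.26 for Has2, 5.91 ± 0.613 for Hyal1, 1.52 ± 0.889 for Has1, 1.09 ± 0.166 for Has3 and 0.286 ± 0.111 for 9930013L23Rik (SD, n = 4 each). Versican and Cd44 transcripts were thus among the abundant ones: of 13697 tested genes with a known length, 97.2% had a lower level than Vcan in Erbb3f/f and 94.7% a lower level than Cd44. At the other end, 1.90% had a lower level than 9930013L23Rik. In Erbb3d/d the level of 9930013L23Rik was 1.03 ± 0.225 CPM per kb (SD, n = 4), beside 0.953 ± 0.370 for Has3.

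Neighbours in this order were compared within each of the 8 libraries by a two-sided exact sign-flip permutation test, adjusted over the 8 neighbouring pairs. For the test, members were sorted by their mean log2 level over the same 8 libraries, which gave the same order. The pairs and their directions were thus taken from the values tested, which limits what the p-values show. No p below 0.00781 is possible with 8 libraries. Vcan exceeded Cd44, Cd44 exceeded Hyal2 and Hyal2 exceeded Tnfaip6 in 8 of 8 libraries (exact test, adjusted p = 0.0208 each), with mean log2 ratios of 0.66, 1.03 and 0.82. Hyal1 exceeded Has1 in 7 of 8 libraries by a mean log2 ratio of 1.74 (exact test, adjusted p = 0.0313). The other 4 pairs did not pass 0.05. Tnfaip6 exceeded Has2 in 6 of 8 libraries (mean log2 ratio 0.78, exact test, adjusted p = 0.0750), Has2 exceeded Hyal1 in 5 (0.21, adjusted p = 0.555), Has1 exceeded Has3 in 6 (0.83, adjusted p = 0.104), and Has3 exceeded 9930013L23Rik in 6 (0.92, adjusted p = 0.116). These tests pool the genotypes. Has2 exceeded Hyal1 in 4 of 4 libraries labelled Erbb3f/f and in 1 of 4 labelled Erbb3d/d, and Has3 exceeded 9930013L23Rik in 4 of 4 and 2 of 4. Has1 exceeded Has3 in 2 of 4 and 4 of 4. The level of Hyal1 was divided by all its exonic bases, although 50.8% of them are shared with Naa80. Its place in the order and its comparisons with Has2 and Has1 are uncertain for that reason.

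**Figure D4:**
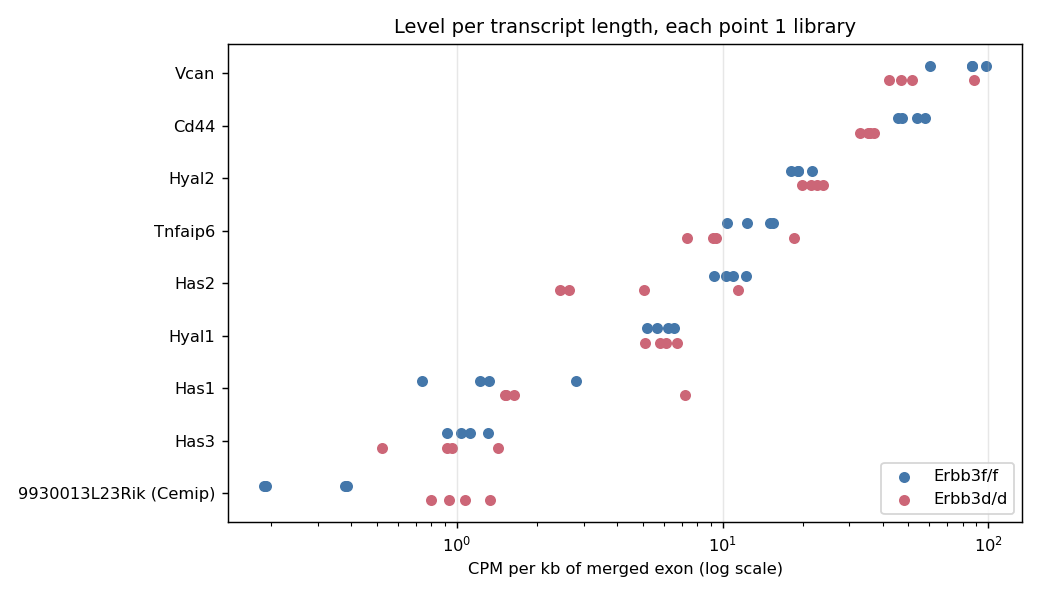
Level of each member per kb of merged exon (x axis, log scale), each point 1 library, coloured by genotype label. Vcan and Cd44 lie highest, and the Has3 and 9930013L23Rik points lie below 2 CPM per kb in every library.

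Some pairs of members varied together inside a genotype and others in opposite directions. After the genotype mean was taken from each value, the 36 pairs of members had Pearson correlations over the 8 libraries from -0.86 (Has1 and Hyal2) to 0.89 (Has1 and Tnfaip6), with a median of -0.04. Has2 and Vcan had 0.77. These are descriptions over 8 libraries that share scaling and cell makeup. By the same measure, the 5 genes of at least 10 CPM most like Cd44, among 11037, were Fyttd1 (r = 0.95), Atg16l2 (0.95), Dcun1d1 (0.95), Ddit4 (0.94) and Rnf165 (0.94). Their own log2 fold changes between the genotypes were -0.02, 0.06, -0.08, -0.21 and 0.145, with SE of 0.10 to 0.33. These 5 correlations are the highest picked from 11037 over only 8 libraries, and whether they exceed chance was not tested.

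Beyond the members, 60 other genes of hyaluronan handling and CD44 biology were listed from general knowledge, of which 45 were tested. edgeR's test called 0 of them after adjustment over the whole table, where it called 0% of all genes. Without adjustment 3 had p under 0.05, namely Mmp14, Esrp1 and Adamts20, where 11.6% of all genes did. DESeq2 called 0, against 1.78% of all genes. The log2 fold change was above 0 in 26 and below 0 in 19, with a median of 0.08. Over all 14598 genes tested it was above 0 in 7004 and below 0 in 7594. Direction counts by role below are descriptions of few genes and were not tested. The smallest adjusted p from edgeR among the pathway genes was 0.313, for Mmp14. The 15 genes not tested had at most 26 reads in a library. They include Hyal4, Hyal5, Hyal6, Spam1, Acan, Bcan, Ncan and Itih1 to Itih4, and Spam1 and Habp2 had no read in any library.

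**Figure D5:**
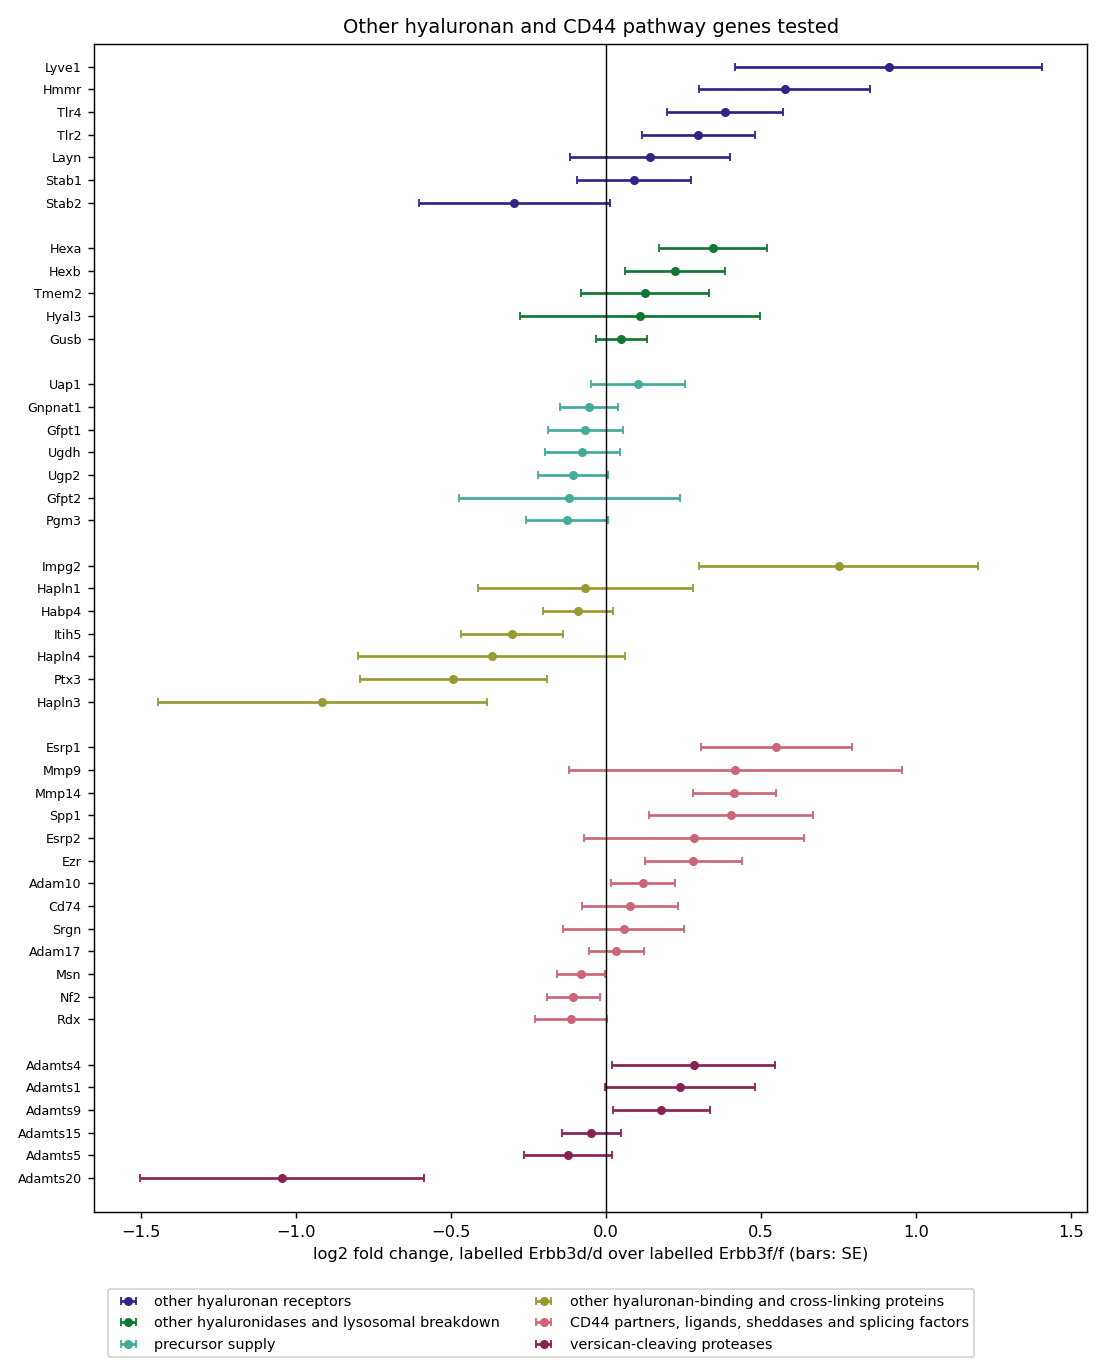
Log2 fold change (x axis, Erbb3d/d over Erbb3f/f, bars SE) of the 45 other pathway genes tested, coloured by role. None passed an adjusted p of 0.05, and Adamts20 at -1.05, Hapln3 at -0.91 and Lyve1 at 0.91 lie farthest from 0.

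Of 7 other hyaluronan receptors, 0 were called and 6 had a log2 fold change above 0. Lyve1, the receptor of lymphatic endothelium and some macrophages, had 48.0, 45.5, 34.8 and 19.99 CPM in Erbb3f/f replicates 1 to 4 and 106, 41.4, 22.4 and 109.5 CPM in Erbb3d/d replicates 1 to 4. Erbb3d/d replicates 1 and 4 lay above every other library and replicates 2 and 3 inside the Erbb3f/f range. The log2 fold change was 0.91 (SE 0.495). Stab1, a scavenger receptor of macrophages and sinusoidal endothelium, and Tlr4, an innate immune receptor reported to sense hyaluronan fragments, had the highest mean CPM of the group over all 8 libraries, although under the label Erbb3d/d Lyve1 had the highest mean. The log2 fold change was 0.09 (SE 0.18) for Stab1 and 0.38 (SE 0.19) for Tlr4.

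Of 9 other breakdown genes, 5 were tested and 0 were called. The lysosomal enzymes Gusb and Hexa, which remove sugars from the ends of hyaluronan fragments, had log2 fold changes of 0.05 (SE 0.08) and 0.34 (SE 0.17). The 7 genes that supply the sugar nucleotides lay near 0, with a median of -0.08 and 0 called. Among them Gfpt1, the entry enzyme of the hexosamine pathway, averaged 179 ± 29.8 CPM for Erbb3f/f and 171 ± 12.5 for Erbb3d/d (± SD, n = 4), Ugp2, which makes UDP-glucose, had a log2 fold change of -0.11 (SE 0.11), and Pgm3, a later enzyme of the hexosamine pathway, had -0.13 (SE 0.13).

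Of 18 other hyaluronan-binding and cross-linking genes, 7 were tested, 0 were called and 6 had a log2 fold change below 0. Itih5, a relative of the heavy chains that are joined to hyaluronan, was the most abundant, at 380.5 ± 37.35 CPM for Erbb3f/f and 308 ± 73.5 for Erbb3d/d (± SD, n = 4), with a log2 fold change of -0.30 (SE 0.16). Hapln3, a link protein that ties proteoglycans to hyaluronan, had 4.09, 3.66, 4.47 and 2.48 CPM in Erbb3f/f replicates 1 to 4 and 1.96, 4.08, 1.496 and 0.438 CPM in Erbb3d/d replicates 1 to 4, a log2 fold change of -0.91 (SE 0.53). Replicate 2 again had the highest value among the libraries labelled Erbb3d/d. Habp4, an intracellular protein able to bind hyaluronan, had a log2 fold change of -0.09 (SE 0.11).

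Of 13 partners, ligands, sheddases and splicing factors of CD44, 0 were called. Mmp14, a membrane protease that can shed CD44, had 543, 571.5, 652 and 678 CPM in Erbb3f/f replicates 1 to 4 and 843, 665, 760 and 988 CPM in Erbb3d/d replicates 1 to 4, a log2 fold change of 0.41 (SE 0.13). The highest library labelled Erbb3f/f lay above the lowest labelled Erbb3d/d. Cd74, a chain of MHC class II handling that pairs with CD44 as a receptor, had a log2 fold change of 0.08 (SE 0.155). Msn, which encodes moesin, a link from CD44 to the actin skeleton, was the one of 45 pathway genes without overlap, where 2.48% of all genes were lower and 2.57% higher in this way, at 376 to 390 CPM in Erbb3f/f and 343 to 375 CPM in Erbb3d/d, with a log2 fold change of -0.08 (SE 0.08). Esrp1, an epithelial splicing factor that favours the longer variants of CD44, had 44.4, 51.3, 35.5 and 52.2 CPM in Erbb3f/f replicates 1 to 4 and 44.6, 48.1, 87.3 and 87.4 CPM in Erbb3d/d replicates 1 to 4. Its highest values fell in the 2 libraries with the highest epithelial sums. Of 6 versican-cleaving proteases, 0 were called. Adamts1 and Adamts4 had the highest mean CPM over all 8 libraries, although Adamts15 (122 CPM) exceeded Adamts4 (109 CPM) in Erbb3f/f. Adamts1 had a log2 fold change of 0.24 (SE 0.24), Adamts4 had 0.28 (SE 0.26), and Adamts20, at 0.526 to 5.45 CPM over the 8 libraries, had -1.05 (SE 0.46).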

How the data were processed

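The authors deposited 1 table of raw read counts per library, with no normalization. HISAT2, SAMtools, HTSeq and StringTie, and the builds mm10 and GRCm38, are listed per the submitters' processing notes; counting options are not given in the sources used here. Lines that name no gene (48.3% to 50.8% of entries assigned to no feature, 12.9% to 15.7% unaligned) were left out. Counts were filtered with filterByExpr, scaled by TMM and tested with edgeR 4.0.16 (quasi-likelihood, robust, Benjamini-Hochberg over all genes) in R 4.3.3, with genotype as the only term. The tests were tried on simulated counts. Alternatives were DESeq2 1.42.0, other scalings, no filter, marker covariates, the replicate number as a block, and each library left out. The members and lists were chosen with earlier results of these data known. Pathway genes named are the 2 most abundant tested genes of each role and the largest change at a mean of at least 1 CPM. Msn, and the pathway genes listed as not tested, were named after their values were seen. Lengths and positions are from GENCODE vM21 (GRCm38), in which 92.8% of symbols matched; 9930013L23Rik was matched through its RefSeq synonym. Deviations of same-numbered libraries from their genotype means were correlated over genes of at least 10 CPM. The values were 0.3308, 0.2287, 0.1065 and 0.1655 for numbers 1 to 4. The same-numbered library was the best match for numbers 1 and 2 but not for 3 and 4. A later check over all genes tested gave 0.0998 to 0.2415, with the best match for number 1 only. Pairing by number is therefore uncertain and rests on the gene set. It was used only in the block and in same-numbered comparisons, not in the main fit. The labels name nothing that same-numbered libraries share.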

Additional observations from a re-analysis of the deposited data

Results flagged for a closer look

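In Erbb3d/d replicate 1, Has1 stood at 32.5 CPM, far from the other 3 libraries of its label, of which the nearest had 7.40 CPM. In the same library Adamts1, a protease that cleaves versican and is known as a rapidly induced gene, stood at 642.5 CPM, with the nearest other library of its label at 381 CPM. Such a lone value was looked for in 68 sets of 4 libraries and found in these 2. Chance alone gives it in about 1 of 20 sets, or 3.4 of 68.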

How the results depend on the processing

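The log2 fold change of Cd44 ran from -0.615 to -0.465 under the 16 alternatives run, within 1 SD of its main value. This SD is that of log2-transformed CPM among libraries of 1 genotype, pooled over both genotypes. Such a band is wide for fits that share most libraries, so staying within it is weak evidence of stability. No pathway gene was called under any of them. The number of genes called over all genes tested was 0 in edgeR's test with all 8 libraries, 270 with DESeq2 and 52 with the replicate number as a block, and it ran from 0 to 259 when 1 library was left out, with 259 only without Erbb3d/d replicate 2. The cause was not tested. Pairing by replicate number rests on the gene set used to check it. The replicate block added 9930013L23Rik to the genes called and changed no other call among the members and pathway genes. This call is not read as a test, since the members were listed with the contrast known. The log2 fold change of Cd44 was -0.532 with the block. Of 128 values of the other 8 members under the alternatives, 122 stayed within 1 such SD of the main value and 9 had the other sign. The 122 include Vcan at -0.21 with the smooth muscle marker mean as a covariate, against -0.54 in the main fit. The number of neighbouring members that differed in level per length, 4 of 8, ran from 3 to 6 with 1 library left out, and with the longest transcript as length Hyal1 came before Has2. Counts of 22 to 60 reads limit 9930013L23Rik in Erbb3f/f.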
